A study of Mus musculus with 8 samples.

Results

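Small RNA processing in the testis was examined through 9 genes: the terminal uridylyltransferases Tut4 (Zcchc11) and Tut7 (Zcchc6), the let-7-binding proteins Lin28a and Lin28b, the exonuclease Dis3l2, the processing enzymes Drosha, Dgcr8 and Dicer1, and the effector Ago2 (Eif2c2). They were found by gene symbol, under the older or the current name, and were represented by 20 of the 45101 probe sets of the Affymetrix Mouse430_2 array, 9 of 21056 named genes. RNA came from testes at postnatal day 23, with 1 array per sample. The 5 arrays labelled wildtype were replicates 1, 2, 4, 6 and 7, and the 3 labelled CTCFL mutant were replicates 3, 5 and 8. Per the study's text the mutants are homozygous for a germline deletion allele of Ctcfl, and the controls on these arrays are heterozygous for the same allele, although the labels call them wildtype. The name in the labels is used here. CTCFL, or BORIS, is the testis-specific paralog of CTCF. The study's text gives a C57/Bl6 background for its mice. Whether the samples of a group came from separate animals is not stated, so the spread between arrays may be partly technical.

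MicroRNA precursors are cut from their primary transcripts by the microprocessor, which consists of the nuclease DROSHA and its RNA-binding partner DGCR8. DICER1 then removes the loop, and 1 strand is loaded into an Argonaute protein such as AGO2. LIN28 proteins bind precursors of the let-7 family and recruit TUT4 or TUT7, which add a tail of uridines that marks the precursor for decay by DIS3L2. LIN28A is known in testis as a protein of undifferentiated spermatogonia. These arrays measure the messenger RNAs of the pathway and not the small RNAs.

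The RNA that LIN28 and TUT4 act on is shown first, because it links the genes described below. The sequences are from RefSeq (GRCm38.p6), 5′ to 3′. Of 11 mature let-7 family members in that table, 10 shared the seed at bases 2 to 8, given in capitals.
mmu-let-7a-5p (chr13:48538239-48538260, minus strand): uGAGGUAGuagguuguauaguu
mmu-let-7b-5p (chr15:85707325-85707346, plus strand): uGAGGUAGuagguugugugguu
mmu-let-7d-5p (chr13:48536078-48536099, minus strand): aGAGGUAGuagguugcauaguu
mmu-let-7g-5p (chr9:106178846-106178867, plus strand): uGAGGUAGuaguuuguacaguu
mmu-miR-98-5p (chrX:151913229-151913250, plus strand): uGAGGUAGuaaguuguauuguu

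LIN28 is known to recognise GGAG in the loop of the precursor. Of the 12 hairpins of the family, 9 held GGAG beyond the 5′ arm, against GGAG at any position in 44.5% of all 1005 hairpins in the table. A pair of hairpins with the motif, in capitals, and 1 of the 3 without it are given.
Mirlet7g (chr9:106178840-106178927, plus strand): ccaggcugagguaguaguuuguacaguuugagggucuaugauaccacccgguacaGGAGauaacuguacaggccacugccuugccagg
Mirlet7a-1 (chr13:48538179-48538272, minus strand): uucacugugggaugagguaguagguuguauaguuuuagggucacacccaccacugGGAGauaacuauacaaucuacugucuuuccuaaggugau
Mirlet7b (chr15:85707319-85707403, plus strand): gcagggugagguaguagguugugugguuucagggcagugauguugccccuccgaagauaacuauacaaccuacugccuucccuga

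Before the genes were compared, the arrays were examined without regard to genotype. Median levels per array lay between 6.40 and 6.45 on the log2 scale. Wildtype replicate 7 and mutant replicate 8 stood apart, scoring 40.2 and 38.2 on the first principal component, while the other 6 arrays scored -24.8 to -3.10. On these arrays the 7 spermatid markers had mean log2 levels of 11.5 and 10.9, against 8.44 to 9.30 on the others. Where a result turns on them, values are therefore also given for the 6 arrays that lay together and for the pair. The tissue label was borne out by its markers, since all 6 measured spermatocyte and all 7 spermatid markers exceeded the median of every wildtype array. The mean of the adipose markers was also high on the pair, at 7.16 and 7.07 against 5.03 to 5.81. It rested mainly on Adipoq, Car3 and Cfd. Cidec lay at 4.40 and 3.98 on the pair against 3.56 to 3.90, and Lep at 4.03 and 3.96 against 3.82 to 4.05. Crisp1, an epididymal gene, lay at 5.82 and 6.38 on wildtype replicate 1 and mutant replicate 8, against 3.17 to 3.34 elsewhere. Ctcfl was not analysed here, so the labels had no check from the deleted gene.

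After Benjamini-Hochberg adjustment in limma, 0 of the 45101 probe sets had a p under 0.05 and the lowest was 0.99996. Before adjustment 1564 (3.47%) did, of which those higher in mutant testis made up 1.76% of the array and those lower 1.70%. The 9 genes were chosen by function after 1 probe set of Tut4 had shown one of the lowest mutant minus wildtype differences on these same arrays. For them the difference between mutant and wildtype testis is therefore described and not tested.

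Tut4 was represented by 4 probe sets, and they did not move together. On probe set 1439631_at, wildtype levels were 7.44, 7.90, 6.43, 7.31 and 7.14 on replicates 1, 2, 4, 6 and 7, and mutant levels were 6.33, 6.33 and 6.18 on replicates 3, 5 and 8, on the log2 scale. The 3 mutant arrays lay below all 5 wildtype arrays, but wildtype replicate 4, at 6.43, was only slightly above them and below the other wildtype arrays, at 7.14 to 7.90. The group means were 7.25 ± 0.54 (SD, n = 5) and 6.28 ± 0.08 (SD, n = 3), a difference of -0.97 (SE 0.26) on the log2 scale, or 1.96-fold on the linear scale. This was the 4th lowest difference of all 45101 probe sets.

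The same probe set was also among the most variable in wildtype testis alone. Its wildtype SD of 0.54 was above that of 99.0% of all probe sets, where the median SD was 0.12. The difference was -0.95 on the 6 arrays that lay together and -0.96 between mutant replicate 8 and wildtype replicate 7. Without wildtype replicate 4 it was -1.17, and without wildtype replicate 2, the highest, -0.80.

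On probe set 1437395_at of the same gene, wildtype levels were 9.90, 9.88, 10.12, 9.95 and 10.06, and mutant levels 9.99, 10.12 and 9.99. The mutant arrays lay inside the wildtype range, with a difference of 0.051 (SE 0.077). This is the probe set of Tut4 with the highest level, and the one chosen to stand for the gene. Probe set 1441545_at had wildtype levels from 6.63 to 6.87 with a median of 6.78, and mutant levels of 6.81, 6.83 and 6.82. Its difference was 0.054 (SE 0.069), again with overlapping groups.

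Probe set 1441359_at had wildtype levels of 7.20, 7.06, 6.97, 7.04 and 6.93 and mutant levels of 6.95, 6.82 and 6.69. Mutant replicate 3 overlapped wildtype replicate 7, and the difference was -0.22 (SE 0.086). Thus 2 probe sets of Tut4 had lower and 2 had slightly higher mean levels in mutant testis. The annotation in the table gives an Ensembl gene for 1439631_at and 1437395_at and none for 1441359_at and 1441545_at. Which transcripts of Tut4 each probe set detects is not given in the sources used here.

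**Figure D1:**
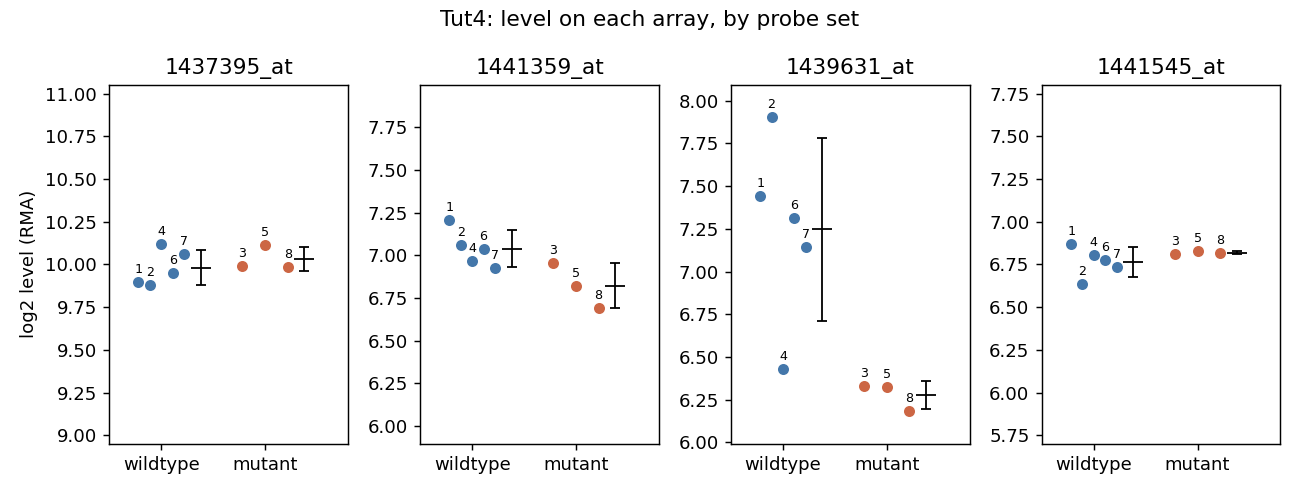
Log2 level of the 4 Tut4 probe sets on each array, with replicate numbers beside the points and the mean and SD of each group to their right. All panels span the same number of log2 units, and only on 1439631_at do the groups not overlap, with wildtype replicate 4 at 6.43 next to the mutant arrays at 6.18 to 6.33.

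Across the 8 arrays, levels of 1439631_at followed those of 1441359_at, with Pearson's r of 0.76 and Spearman's rho of 0.90. Without wildtype replicates 1 and 2, which lay farthest from the median, r was 0.66, and on the 6 arrays that lay together it was 0.76. Against 1437395_at, r was -0.70 and rho -0.64, without the same 2 arrays r was -0.31, and on the 6 arrays it was -0.87. Against 1441545_at, r was -0.59 and rho -0.45, with r of -0.85 without those 2 arrays and -0.57 on the 6 arrays. These values include the genotype difference that brought 1439631_at forward, so they are given without p.

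The 5 named genes whose levels were most like those of 1437395_at over the 8 arrays were 4930422I22Rik (r = 0.95), Mfsd4b4 (0.91), Foxo3 (0.91), Dcp2 (0.89) and 4930430F08Rik (0.89). Foxo3 is a forkhead transcription factor, and Dcp2 the enzyme that removes the cap of messenger RNAs. For 1439631_at, a probe set chosen after its values were known, they were Gfm1 (0.96), Morc1 (0.96), Sike1 (0.94), Tex12 (0.94) and Ift27 (0.93). Morc1 and Tex12 are germ cell genes needed in meiosis, and Tex12 encodes a component of the synaptonemal complex. Levels of Morc1 were 6.97, 7.04, 6.65, 6.89 and 6.86 in wildtype and 6.73, 6.71 and 6.54 in mutant testis. As on 1439631_at, wildtype replicate 2 was highest and wildtype replicate 4 lowest of the wildtype arrays. These lists shared no gene, and no p is given because the genes were picked for their likeness.

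RefSeq gives 2 windows at Tut4 start sites on chromosome 4 (GRCm38.p6), each from 250 bases before to 50 after the start. They are printed because CTCFL binds sites like those of CTCF, the CCCTC-binding factor. Capitals mark CCCTC or, for the other strand, GAGGG.
Tut4 upstream start (chr4:108459160-108459459, plus strand): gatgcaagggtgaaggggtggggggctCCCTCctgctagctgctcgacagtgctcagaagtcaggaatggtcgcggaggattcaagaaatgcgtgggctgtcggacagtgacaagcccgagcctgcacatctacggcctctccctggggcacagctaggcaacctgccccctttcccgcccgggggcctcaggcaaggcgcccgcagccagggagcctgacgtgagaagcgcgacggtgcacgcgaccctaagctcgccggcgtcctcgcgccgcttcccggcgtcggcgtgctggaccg
Tut4 downstream start (chr4:108459758-108460057, plus strand): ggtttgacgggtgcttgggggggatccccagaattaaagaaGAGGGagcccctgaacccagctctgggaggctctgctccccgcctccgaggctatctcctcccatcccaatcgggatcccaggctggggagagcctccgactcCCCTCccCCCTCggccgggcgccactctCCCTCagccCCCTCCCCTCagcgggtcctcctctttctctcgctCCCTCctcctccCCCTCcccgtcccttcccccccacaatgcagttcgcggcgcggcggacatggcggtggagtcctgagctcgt

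The upstream window held CCCTC 1 time and GAGGG 0 times, and the downstream window 7 times and 1 time. Their GC content was 68.0% and 68.3%, against a median of 52.7% over all windows. How many windows hold as many matches was not counted. CCCTC on either strand occurs in 66.0% of the 32851 windows in the table. Among the 9 genes, 8 had a window, 10 in all, of which 8 held it. Lin28b and 1 of the 2 windows of Tut7 did not. A match of these letters is a description of the sequence and not a binding site.

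Tut7, the paralog of Tut4 with the same enzymatic activity, had closely matching levels in both groups. On 1433910_at wildtype levels were 9.46, 9.40, 9.39, 9.39 and 9.35 and mutant levels 9.37, 9.42 and 9.38, a difference of -0.0076 (SE 0.058). Its wildtype SD was 0.038, above that of only 2.94% of all probe sets. The other probe set, 1441986_at, was below the array medians, at 5.35 to 5.69 in wildtype and 5.50 to 5.73 in mutant testis, with a difference of 0.066 (SE 0.095).

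Lin28a showed the next largest difference among the 9 genes. On 1437752_at wildtype levels were 6.89, 6.84, 6.34, 6.25 and 6.32 and mutant levels 7.01, 6.97 and 6.70. Wildtype replicates 1 and 2 lay among the mutant arrays, while wildtype replicates 4, 6 and 7 lay below them. The means were 6.53 ± 0.31 (SD, n = 5) and 6.89 ± 0.17 (SD, n = 3), a difference of 0.37 (SE 0.17). It was 0.41 on the 6 arrays that lay together and 0.38 between the pair. The second probe set, 1421749_at, carried another Ensembl gene in the table and lay far below the array medians, at 3.72 to 4.11 in wildtype and 3.81 to 4.02 in mutant testis. Its difference was 0.045 (SE 0.10).

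Levels of Lin28a were compared with those of germ cell markers on the same arrays. The mean level of 6 spermatogonial markers (Zbtb16, Gfra1, Kit, Dmrt1, Sall4 and Ret) lay between 7.34 and 7.53 in wildtype and between 7.44 and 7.63 in mutant testis. Of the 6, 4 exceeded the median of every wildtype array, while Gfra1 (4.87 to 5.51) and Ret (6.11 to 6.25) lay below the array medians. Over the 8 arrays Lin28a 1437752_at correlated with it at r = 0.80 (exact permutation p = 0.0205, adjusted over 9 relations 0.113) and rho = 0.74 (exact p = 0.0458, adjusted 0.138). Without mutant replicate 5 and wildtype replicate 7, the farthest from the median, r was 0.71 (exact permutation p = 0.117). On the 6 arrays that lay together r was 0.80 (exact permutation p = 0.0722, adjusted 0.130). The relation did not pass after adjustment. Lin28a and the marker mean both ran higher in mutant testis, so these values include the group difference, which is described and not tested. Among the markers Zbtb16 did not run higher, at 7.94, 8.21 and 7.60 in mutant and 7.65 to 8.30 in wildtype testis. The other markers had higher means in mutant testis, among them the faint Gfra1, at 5.28 to 5.51 against 4.87 to 5.31. The 9 relations also hold those of the Tut4 probe sets, which are given without p. In bulk RNA a larger number of cells of a type and more RNA per cell cannot be told apart.

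The spermatid markers split the arrays into the pair and the other 6, so their relation to Lin28a is given on both sets. Over all 8 arrays r was -0.55 (exact permutation p = 0.169, adjusted over 9 relations 0.25) and rho -0.81 (exact p = 0.0218, adjusted 0.098). On the 6 arrays r was -0.84 (exact permutation p = 0.0347, adjusted 0.106). None passed after adjustment, and these values too include the group difference. Of the 6 arrays, Lin28a was highest, at 6.84 to 7.01, on the 4 with the lowest spermatid means, mutant replicates 3 and 5 and wildtype replicates 1 and 2. For Tut4 1439631_at the correlation with the spermatid mean was 0.27 on the 6 arrays and -0.078 over all 8, given without p as above.

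**Figure D2:**
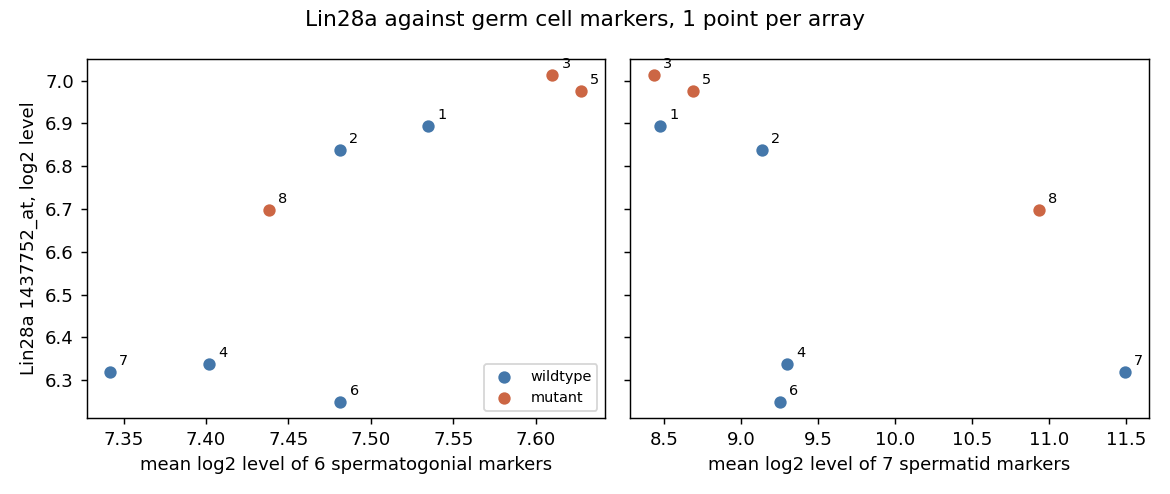
Log2 level of Lin28a 1437752_at on each array against the mean log2 level of 6 spermatogonial markers (left) and 7 spermatid markers (right), with replicate numbers beside the points. Wildtype replicates 1 and 2 lie with mutant replicates 3 and 5 at high Lin28a in both panels, and wildtype replicate 7 and mutant replicate 8 lie apart at spermatid means of 11.5 and 10.9.

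Lin28b, the second mammalian LIN28 gene, had 1 probe set, 1430803_at, near the bottom of the array, at 3.38 to 3.70 in wildtype and 3.42 to 3.47 in mutant testis, and its difference of -0.081 (SE 0.082) was at a level where the array resolves little. Dis3l2, which degrades uridylated precursors, had 3 probe sets. On 1437951_at wildtype levels were 7.94, 7.96, 7.89, 7.83 and 7.70, mutant replicates 3 and 8 were at 7.86 and 7.73, and mutant replicate 5 was slightly the highest of all arrays, with a difference of -0.0010 (SE 0.086). On 1434090_at the wildtype range was 6.63 to 7.05 and mutant levels were 6.88, 6.94 and 7.22, with a difference of 0.15 (SE 0.11) that was 0.055 on the 6 arrays and 0.33 between the pair. The third, 1459365_at, lay at 3.74 to 4.13 over all 8 arrays.

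The processing enzymes had overlapping groups on every probe set. Drosha, the nuclear nuclease, had wildtype levels of 9.84, 9.95, 9.81, 9.68 and 9.93 and mutant levels of 9.80, 9.71 and 9.61 on 1438505_s_at. The difference was -0.14 (SE 0.082), of which the 6 arrays gave -0.064 and the pair -0.32. A pair of further probe sets, assigned in the table to Drosha and to a second gene name, was not counted among the 20, with differences of -0.038 and 0.057.

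Dgcr8, the partner of DROSHA, had 4 probe sets. On 1455311_at wildtype levels were 8.62, 8.68, 8.72, 8.62 and 8.82 and mutant levels 8.71, 8.73 and 8.66, with a difference of 0.0049 (SE 0.069). On 1435439_at the difference was 0.016 (SE 0.070). The others were below the array medians, with differences of 0.17 (SE 0.12) on 1422981_at and -0.021 (SE 0.16) on 1446169_at. The last fell into separate levels, at 5.86 to 5.95 on wildtype replicates 1, 2 and 4 and mutant replicate 3 and at 5.34 to 5.59 on the other 4 arrays, without regard to genotype.

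Dicer1, the cytoplasmic nuclease, had differences of 0.030 (SE 0.094) on 1427941_at and 0.077 (SE 0.081) on 1460571_at. On the first, wildtype levels were 8.56, 8.57, 8.40, 8.39 and 8.37 and mutant levels 8.64, 8.55 and 8.29. Mutant replicate 8 was the lowest of all arrays and mutant replicate 3 the highest, so mutant arrays spanned the whole range. Ago2, which carries the guide strand and can slice its target, had wildtype levels of 8.45, 8.61, 8.12, 8.13 and 8.27 and mutant levels of 8.13, 8.41 and 8.19. Its difference was -0.074 (SE 0.12), and its 1 probe set, 1426366_at, carried 2 Ensembl genes in the table.

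**Figure D3:**
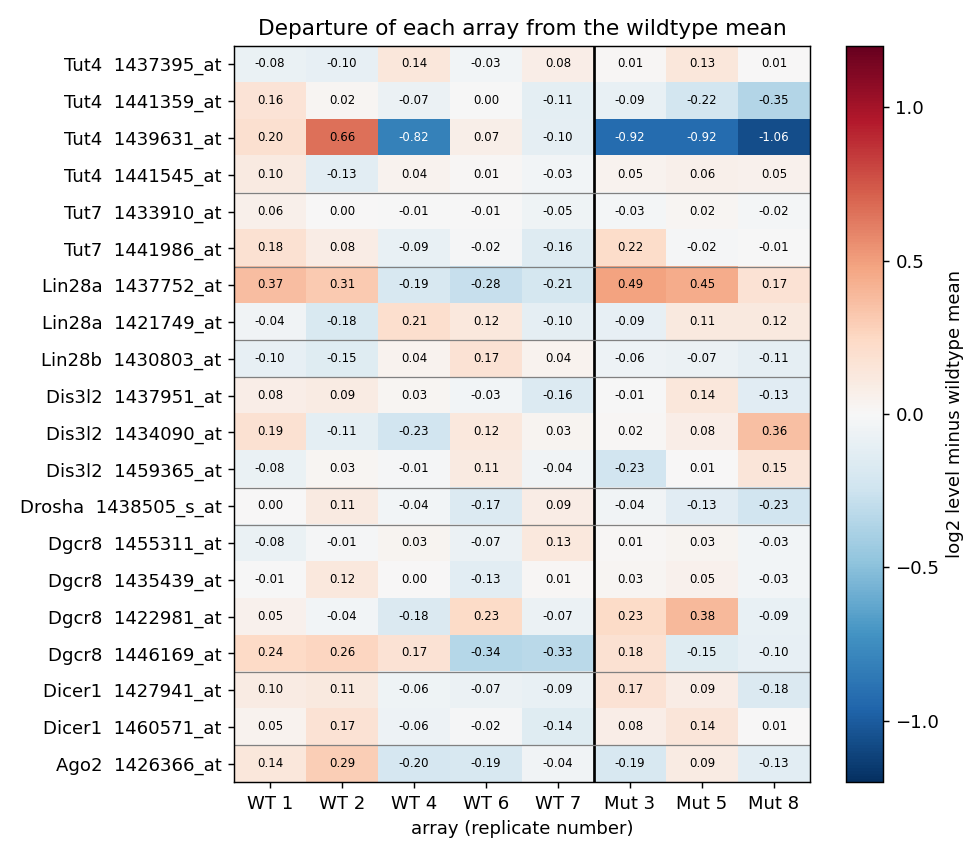
Log2 level of each of the 20 probe sets on each array minus the wildtype mean of that probe set, with wildtype arrays left and mutant arrays right of the line. The deepest departures are on Tut4 1439631_at, in wildtype replicate 4 (level 6.43) and all 3 mutant arrays (levels 6.18 to 6.33) against a wildtype mean of 7.25.

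Of the 20 probe sets, 11 had a higher and 9 a lower mean in mutant testis, and the median difference was 0.010 against 0.0032 over all probe sets. Groups did not overlap for 1 of the 20, Tut4 1439631_at, which was lower, against 2.70% over the array, 1.31% lower and 1.38% higher. The gene set was built around that probe set, so its count is not read against these shares. With 1 probe set for each gene, 4 of 9 genes had a higher and 5 a lower mean, with a median of -0.0010 and no separation of the groups.

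**Figure D4:**
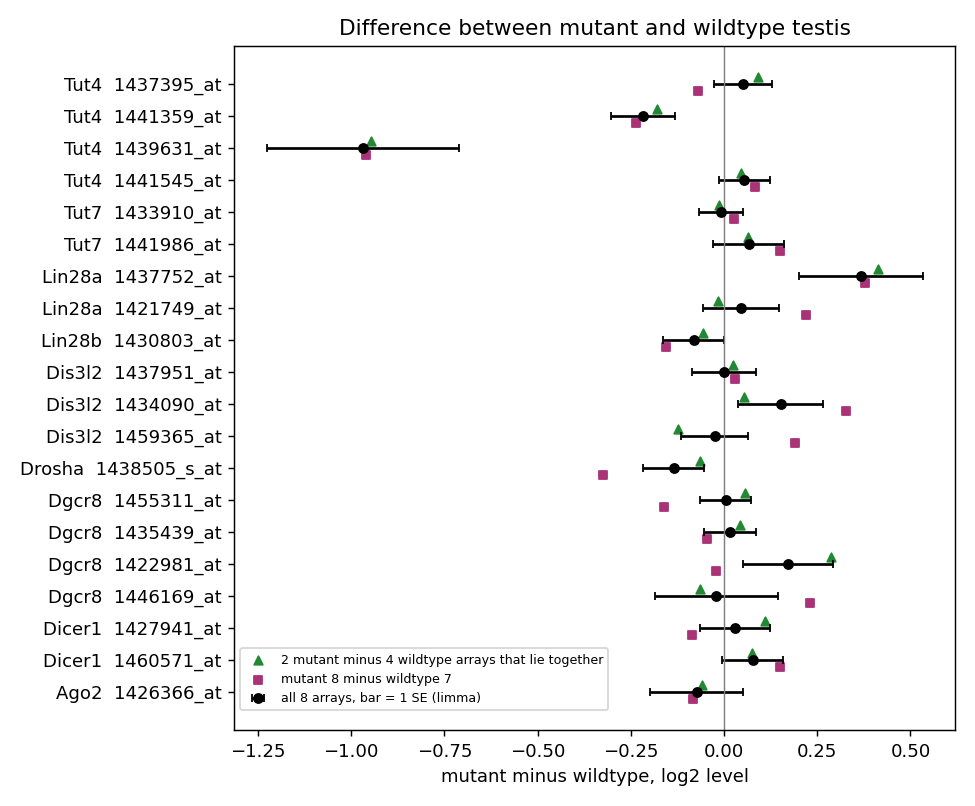
Mutant minus wildtype difference in log2 level for the 20 probe sets over all 8 arrays (circles, bars are 1 SE from limma), over the 6 arrays that lay together (triangles) and between mutant replicate 8 and wildtype replicate 7 (squares). Tut4 1439631_at is at about the same difference in all 3, -0.97, -0.95 and -0.96, whereas Drosha moves from -0.064 on the 6 arrays to -0.32 between the pair.

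The rest of the pathway was described with 51 further genes on 138 probe sets, from terminal nucleotidyltransferases to let-7 targets. With limma none had an adjusted p under 0.05. At an unadjusted p under 0.05 there were 8 (5.80%), all lower in mutant testis, against 1.70% lower over the array. With 1 probe set per gene the count was 0, and without wildtype replicate 7 it was 3. They came from 5 genes, so they are not 8 separate observations. The median difference of the 138 was 0.017, with 76 higher and 62 lower. The groups did not overlap for 7 lower probe sets (5.07%, against 1.31% over the array) and 1 higher (0.725%, against 1.38%). The list was chosen with earlier results of these data known, so its counts are set beside those of the array as a description only.

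Of the 8, 4 belonged to Ran and Ddx5. RAN is the GTPase that drives nuclear export of precursors by exportin 5, and DDX5 an RNA helicase of the microprocessor. Ran had lower means on 5 of 5 probe sets, from -0.27 to -0.053. Ddx5 had lower means on 4 of 6. On Ran 1438977_x_at, wildtype levels were 13.12, 13.11, 13.23, 13.03 and 13.21 and mutant levels 13.02, 12.87 and 12.73 (limma unadjusted p = 0.0088). All 4 carry a suffix for probes that match several transcripts. The differences on these 4 ranged from -0.18 to -0.14 on the 6 arrays and from -0.52 to -0.42 between the pair. On the remaining probe sets of these genes, with or without the suffix, differences ran from -0.11 to 0.067.

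Among the 11 let-7 targets, Igf2bp3 had lower means on 6 of 6 probe sets, from -0.21 to -0.033. IGF2BP3 is an RNA-binding protein of germ cells and embryonic tissue. Of the 6, 1450687_at at -0.21 and 1453957_a_at at -0.16 were past an unadjusted p of 0.05. On the 6 arrays these differences were -0.24 and -0.12, and between the pair -0.21 and -0.27. On 1433731_at wildtype levels ran from 8.97 to 9.16 with a median of 9.01 and mutant levels were 8.94, 8.86 and 8.91, without overlap (limma unadjusted p = 0.0786). Higher means on 3 of 3 probe sets were found for Ccnd1 (0.074 to 0.16) and Cdc25a (0.049 to 0.12), none past a limma unadjusted p of 0.05. The let-7 targets as a whole were split evenly, with 18 probe sets higher and 17 lower. Hmga2, the best known of them, had 2 probe sets higher and 2 lower, all below the array medians.

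Ago4, an Argonaute known from meiotic germ cells, had lower means on both probe sets, at -0.16 (limma unadjusted p = 0.0363) and -0.15. On 1453289_at wildtype levels were 8.96, 8.83, 8.78, 8.81 and 8.90 and mutant levels 8.72, 8.67 and 8.71, without overlap, and the difference was -0.15 on the 6 arrays and -0.19 between the pair. Neither Ago1 nor Ago3 had a probe set past an unadjusted p of 0.05. Of the 11 probe sets of other terminal nucleotidyltransferases none passed either, and Tut1, a nuclear relative of Tut4, differed by -0.0062 and -0.013. Of the 20 probe sets of decay enzymes and the exosome, from 10 genes, 13 were higher and 7 lower, none past that threshold. The other regulators of let-7 were higher on 15 of 20 probe sets, again with none past it. These came from 6 genes, so the probe sets are not separate observations. Over the array 23219 of 45101 probe sets were higher.

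**Figure D5:**
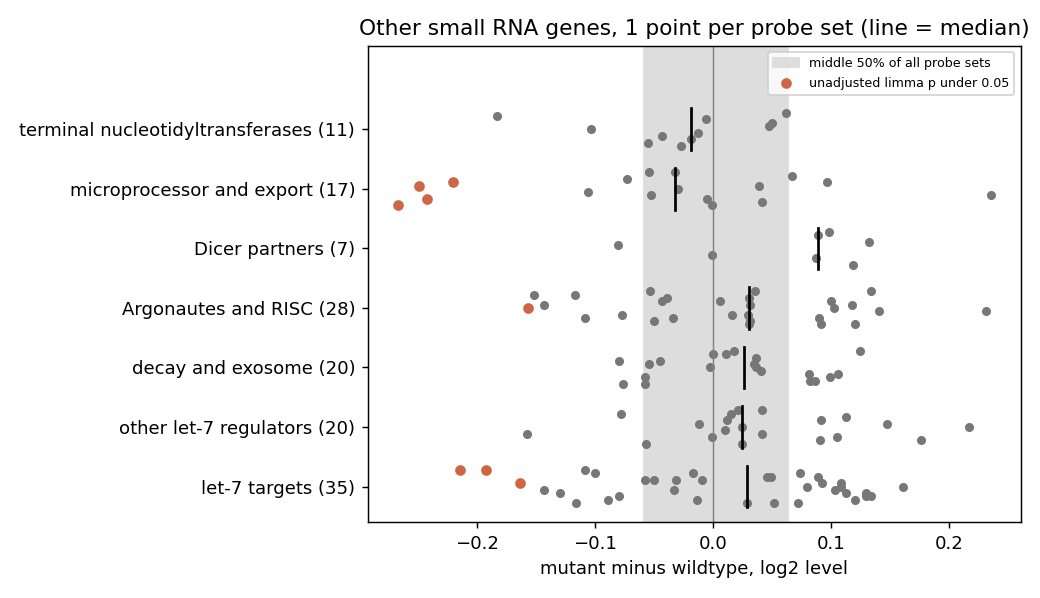
Mutant minus wildtype difference in log2 level for 138 probe sets of 51 other small RNA genes, by role, with the number of probe sets in brackets and a line at each median. The grey band holds the middle 50% of all probe sets, and the 8 probe sets with an unadjusted limma p under 0.05 all lie to its left.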

How the data were processed

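Testis RNA was hybridised to Affymetrix Mouse430_2 arrays, 5 labelled wildtype and 3 CTCFL mutant, grouped by sample title. The deposited table holds log2 levels per probe set and array, made by the authors with RMA background correction and quantile normalisation. Versions and genome build are not given in the sources used here. Columns and tables with the authors' own comparisons (differences, fold values, p-values) were not used. All 45101 probe sets, 64 controls included, were fitted without a filter with limma 3.58.1 in R 4.3.3 (lmFit, then eBayes), with two-sided p-values adjusted by Benjamini-Hochberg, after the fit had been tested on simulated data. Gene names came from Entrez IDs through RefSeq (GRCm38.p6), which matched 35498 of 38810. Correlations were tested by exact permutation of the arrays, two-sided. Tables were made in Python 3.11.15 (pandas 2.3.3, numpy 2.4.6, scipy 1.17.1). The number of arrays limits the precision.

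The 9 genes, the marker lists and the list of other small RNA genes were chosen with earlier results of these data known. Every probe set of the 9 genes is named. The probe set standing for a gene has no _s_at or _x_at suffix where possible, then the highest mean level. Of 52 further genes and the markers, Tent5d, Hormad1, Nanos2, Insl3 and Plin1 had no named probe set. The labels name no batch, so the block joining wildtype replicate 7 and mutant replicate 8 comes from their values. Leaving out the control probe sets and leaving out wildtype replicate 4 on the 6 arrays were chosen after the data were seen. The values of 1 further gene, counted within its list, are not reported here.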

Additional observations from a re-analysis of the deposited data

Results flagged for a closer look

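Each of the 20 probe sets and 10 marker lists was examined among the 5 wildtype arrays for 1 array far from the others, where chance gives about 1 in 20. No probe set of the 9 genes stood out, although Tut4 1439631_at and Lin28a varied widely. There were 4 marker lists that did. On wildtype replicate 7 the mean log2 level was 11.4966 for spermatid markers against 9.30 on the nearest wildtype array, 9.2598 for Leydig markers against 8.90, and 7.1566 for fat markers against 5.81. On wildtype replicate 1 it was 5.0881 for epididymal markers against 4.26, which rested on Crisp1 at 5.82, since Lcn5 at 4.96 was the lowest of all arrays there and Defb42 at 4.49 was below wildtype replicate 6 at 4.57. Over all 8 arrays the Leydig mean was highest on mutant replicate 3, at 9.46, and the epididymal mean on mutant replicate 8, at 5.50. The part of these marker lists in the levels of the 9 genes was not tested.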

How the results depend on the processing

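No paired analysis was possible because the replicate numbers run on through both groups and the labels name no litter. The study's text calls the mutant and control mice of these arrays littermates. All 20 probe sets moved by less than 1 SD between replicates (pooled within groups) under each of the 13 alternatives. With 5 and 3 arrays, leaving out 1 array cannot move a difference by more than that, so those alternatives could not fail. Of the 20, 11 kept the sign of their difference throughout. Tut4 1439631_at ranged from -1.17 to -0.80 leaving out 1 array, was -0.68 with an offset of 50 on the linear scale and -1.23 without wildtype replicate 4 on the 6 arrays. Tut4 1437395_at ranged from 0.0087 to 0.086 leaving out 1 array, and the gene's difference depended on the probe set, at -0.22 on 1441359_at and -0.97 on 1439631_at. Lin28a 1437752_at ranged from 0.24 to 0.47. Of all probe sets, 1 passed an adjusted p of 0.05 with the block for wildtype replicate 7 and mutant replicate 8, and 0 otherwise. The 1564 at an unadjusted p under 0.05 became 2644 with the block, 707 among the brighter probe sets (mean over the median) and 680 with 1 probe set per gene, and 1220 to 2649 leaving out 1 array, the last without mutant replicate 8. The 8 among other small RNA genes became 0 at 1 probe set per gene, 11 with the block, 12 with the offset and 12 in the one-way comparison, and 3 to 8 leaving out 1 array, with 3 without wildtype replicate 7, 4 without wildtype replicate 4 and 5 without mutant replicate 8. Brighter probe sets and 1 per gene mean fewer tests, and for the other changes the cause was not tested.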
